A study of Mus musculus with 6 samples.

Results

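The potassium channel genes of the mouse trigeminal ganglion were taken as every protein-coding gene of the deposited table whose symbol begins with Kcn. This gave 82 genes of the 17524 in the table, of which 15116 are protein-coding. They comprised 36 voltage-gated alpha subunits (Kcna to Kcnh, Kcnq, Kcns and Kcnv), 12 inward rectifiers (Kcnj), 12 2-pore-domain channels (Kcnk), 11 calcium- or sodium-gated channel genes (Kcnm, Kcnn and Kcnt), 9 auxiliary subunits (Kcnab, Kcne and Kcnip) and 2 others (Kcnrg and Kcnu1). The trigeminal ganglion holds the cell bodies of the sensory neurons of the face and meninges, with satellite glia and Schwann cells around them. Wild-type mice received vehicle or NTG, an abbreviation commonly used for nitroglycerin in mouse models of migraine, and polyadenylated RNA of the ganglion was sequenced in 3 libraries per group. The labels state no dose, time after treatment, age or sex. Nor do they say whether the libraries of a group came from different animals. The p-values therefore reflect only how far these libraries spread, which may be technical.

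Potassium channels let potassium leave the cell and so oppose firing. Voltage-gated channels repolarise each spike and set how fast a neuron can fire. The 2-pore-domain channels carry the resting leak. Inward rectifiers hold the resting potential of neurons and clear potassium into glia. Calcium- and sodium-gated channels shape the pause after a spike. Auxiliary subunits alter the gating and surface number of the pores. Almost all pore-forming subunits share a short selectivity filter, a loop whose backbone strips water from potassium ions.

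The filter region is shown for 5 voltage-gated genes whose filter lies within 1 exon, 3 that rose and 2 that fell, because it lets the base composition of genes that rose and fell be read at a part of the channel that they share. Each line is a 66-base stretch of coding sequence, read 5′ to 3′ from GENCODE release M21 transcripts on GRCm38. Capitals mark the 5 codons of the filter. The lines run from Kcnh7, Kcnh5 and Kcnb2, which were higher with NTG, to Kcnh2 and Kcns1, which were lower.
Kcnh7: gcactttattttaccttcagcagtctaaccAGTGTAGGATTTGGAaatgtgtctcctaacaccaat
Kcnh5: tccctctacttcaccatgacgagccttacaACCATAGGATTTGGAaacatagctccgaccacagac
Kcnb2: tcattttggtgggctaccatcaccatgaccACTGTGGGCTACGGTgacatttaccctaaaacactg
Kcnh2: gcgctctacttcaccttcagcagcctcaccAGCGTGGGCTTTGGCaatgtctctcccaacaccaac
Kcns1: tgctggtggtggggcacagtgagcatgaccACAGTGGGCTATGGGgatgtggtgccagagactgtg
The stretches lie at chr2:62777322-62777387 (minus strand, exon 8), chr12:75087445-75087510 (minus strand, exon 7), chr1:15710016-15710081 (plus strand, exon 2), chr5:24325534-24325599 (minus strand, exon 7) and chr2:164164833-164164898 (minus strand, exon 4), in that order. Their GC content was 39.4% in Kcnh7, 48.5% in Kcnh5 and also in Kcnb2, 57.6% in Kcnh2 and 60.6% in Kcns1. Within the filter codons alone it was 40.0% in Kcnh7 and Kcnh5, 66.7% in Kcnh2 and 60.0% in both Kcnb2 and Kcns1. The filter itself thus did not separate Kcnb2, which rose, from Kcns1, which fell. The 3 that rose were picked as the largest rises of the class, so the 5 genes do not stand for the rest. Other voltage-gated genes that rose or fell are not shown, among them Kcng2 and Kcnc1, which fell. Over the whole coding sequence, GC content at the third codon position was 73.3% in Kcna1, which rose, and 72.8% in Kcnh2. Kcnh7 and Kcnh2 encode the ERG-type channels Kv11.3 and Kv11.1, and their stretches shared 53 of 66 bases. All 22 codons of that pair encode the same amino acid, and all 13 base differences fell at the third codon position. In the coding sequences of all members, the filter was sought as codons for serine or threonine, any residue, serine or threonine in the next pair of positions, valine, isoleucine or leucine, glycine, tyrosine, phenylalanine or leucine, and glycine. It was found in 35 of the 36 voltage-gated genes, 11 of 12 Kcnk, 8 of 12 Kcnj, 3 of 11 calcium- or sodium-gated, 0 of 9 auxiliary and 1 of the 2 other genes. A gene without a match may hold a filter spelled otherwise.

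All 82 genes were measured well enough to be tested. In limma, 9 rose and 13 fell with NTG at an adjusted p under 0.05, and 60 did not pass. These 22 genes are 26.8% of the members. Over all 17475 genes tested, percent called was 25.8, with 12.3 percent higher and 13.5 percent lower, so the share among potassium channel genes lay close to the background. The changes were small. The rises ran from 0.14 to 0.55 and the falls from -0.17 to -0.70 on the log2 scale, which is 1.47-fold higher for Kcnh7 and 1.63-fold lower for Kcng2 at the extremes. The median log2 fold change was -0.050 over the 82 genes and 0.00096 over all genes tested. The NTG libraries lay wholly above the vehicle libraries for 14 members and wholly below for 17, which is 31 members in all. Over all genes this held for 39.7 percent, with 19.7 percent above and 20 percent below. All 22 calls came from the 60 members with a mean of at least 5 CPM (reads of a gene scaled to a common library size), where percent called over all genes was 34.2, and none came from the 22 members below that level. The quasi-likelihood test of edgeR on recovered reads called the same 22 genes in the same directions, with a background of 25.5 percent called.

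**Figure D1:**
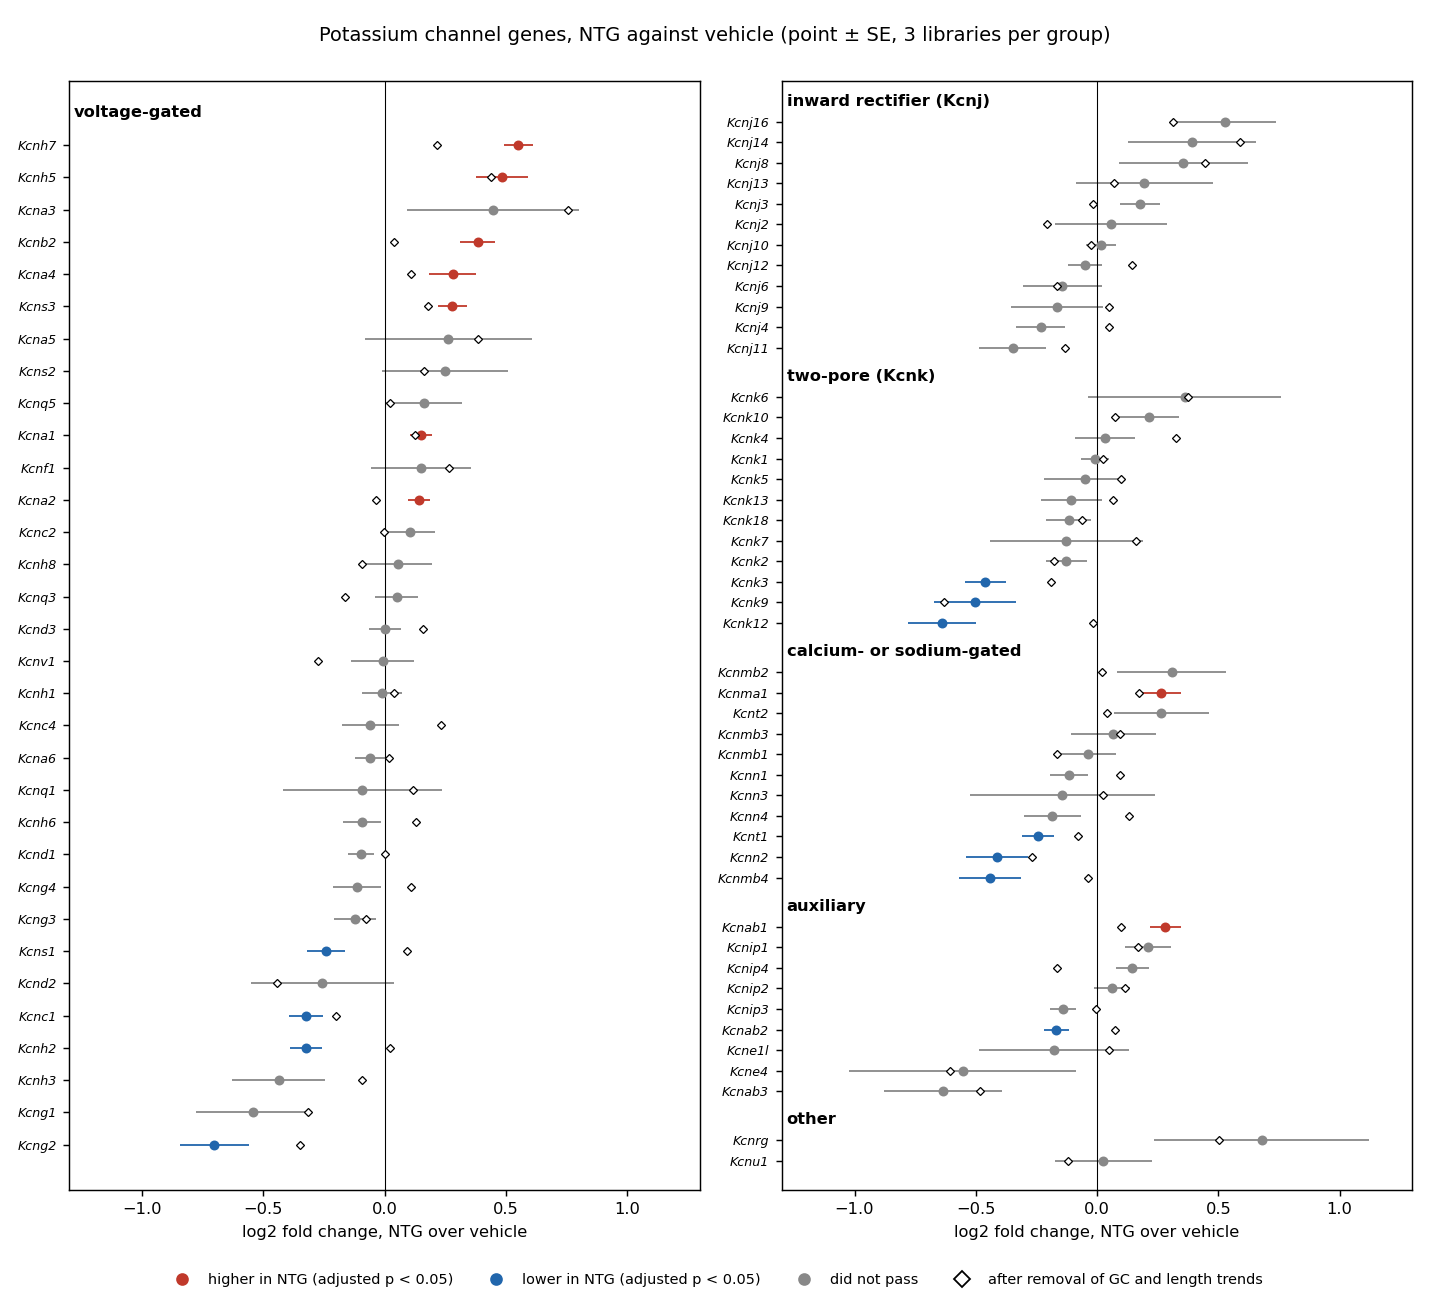
Log2 fold change of NTG over vehicle (x axis) for 78 of the potassium channel genes (y axis), grouped by class, as the limma estimate ± SE over 3 libraries per group. Red and blue circles passed an adjusted p of 0.05, grey circles did not, and open diamonds give the estimate after the GC and length trends of each library were removed: the 9 rises reach 0.55 (Kcnh7), the 11 falls drawn reach -0.70 (Kcng2), and among those 20 genes all diamonds but that of Kcnk9 lie closer to 0.

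Base composition moved with the direction of change. Transcript GC content had a median of 45.8% among the 9 genes that rose, 59.7% among the 13 that fell and 52.4% among the other 60. The ranges of the risers (39.3 to 50.1%) and the fallers (47.9 to 69.4%) overlapped only at Kcnk9, the faller of lowest GC. At the third codon position, where base changes often leave the protein as it is, median GC was 57.5% in risers, 77.3% in fallers and 69.3% in the rest. Across the 82 members transcript GC and log2 fold change had a Spearman's rho of -0.63, and across 14932 protein-coding genes it was -0.64. The genes share the same 6 libraries, so these are descriptions without a test. Among the 28 members of lowest GC, 8 rose and 1 fell, with a median log2 fold change of 0.19, beside 0.18 over all genes of the same GC range. Among the 27 members of highest GC, none rose and 9 fell, with a median of -0.18 beside -0.24 over all genes of that range, 42.9% of which fell.

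The trend with GC was present in each library. For the members, the log2 value relative to the mean of all libraries rose by 0.10, 0.18 and 0.13 for each 10 percentage points of GC in vehicle replicates 1 to 3. In NTG it changed by -0.20, -0.17 and -0.043, so the groups did not overlap. Over all protein-coding genes the slopes were 0.11, 0.19 and 0.17 in vehicle and -0.22, -0.17 and -0.080 in NTG. Once the smooth trend over GC and length had been subtracted from each library, 4 members were higher (Kcnh7, Kcnh5, Kcns3 and Kcna1) and 2 lower (Kcnc1 and Kcnk9), all in the direction they had before. The background was then 9.21 percent called of 16278 genes, with 4.15 percent higher and 5.07 percent lower. The part of the GC trend in these results was not tested, and each rise or fall of a potassium channel gene below is given with its value after the trend was removed.

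**Figure D2:**
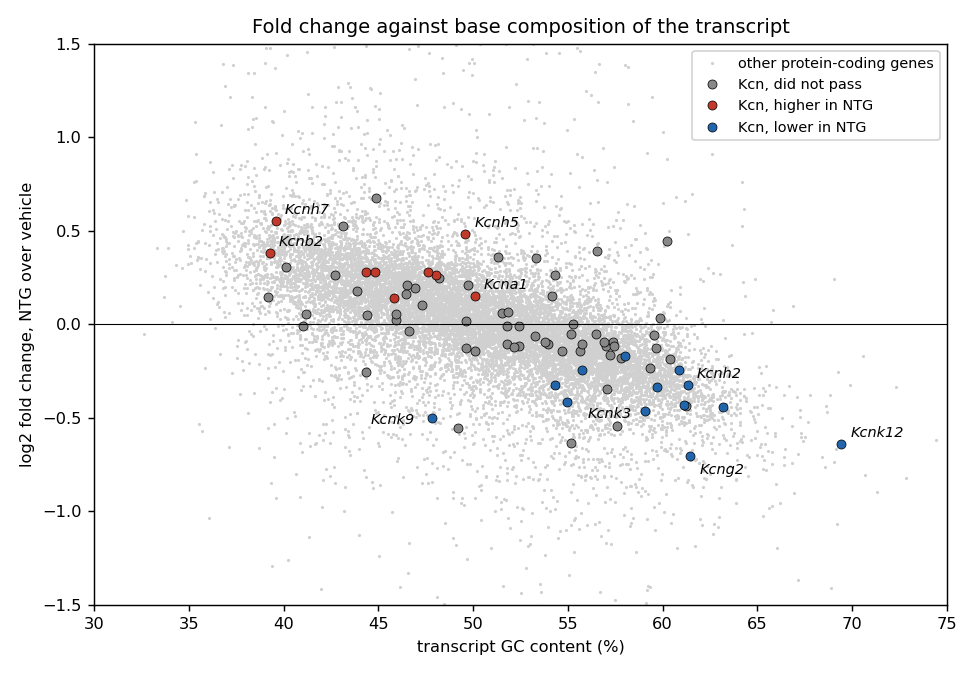
Log2 fold change of NTG over vehicle (y axis) against transcript GC content in percent (x axis) for potassium channel genes (large circles) and other protein-coding genes (small grey points). Red and blue circles are the 9 and 13 members that rose and fell at an adjusted p of 0.05, and they follow the slope of the grey points, with Kcnk9 below and Kcnh5 above most points of like GC. Of the protein-coding genes, 86 lie outside the axes, with no member among them.

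Markers of sensory neurons and of their glia were abundant in every library, and within both lists some markers rose while others fell. Libraries held 18813027 to 23774244 reads, and 3 reads equal 0.126 to 0.159 CPM, which covers counting error only. Neuronal markers summed to 471050.2 to 490099.8 normalised reads in vehicle and 454578 to 469371 in NTG, with no overlap. The neurofilament genes Nefm and Nefh, left out after their values were seen, carried this, since the other 12 summed to 302549 to 315182 in vehicle and 302650.3 to 316345 in NTG, which overlapped. Normalised reads are the deposited values, reads divided by a size factor of the library. Of these 14 markers, 3 rose and 6 fell, and their log2 fold changes ran from -0.53 to 0.43. Nefl, also a neurofilament gene and the marker of highest mean, rose by 0.11 ± 0.038 (limma adjusted p = 0.0443). The 8 satellite glia markers (2 rose, 3 fell) summed to 111214 to 115086 in vehicle and 99233 to 103507 in NTG, also without overlap. Apoe, which macrophages also express, was at 71946 to 74983 in vehicle and 57912 to 64642 in NTG. The other 7, set apart after their values were seen, summed to 36231 to 40353 in vehicle and 38865 to 41613 in NTG, with overlap, and the median of all 8 log2 fold changes was 0.033. Schwann cell markers (1 of 8 rose, 3 fell) summed to 284821 to 311626 in vehicle and 269375 to 294559.7 in NTG, with overlap. Of the skeletal muscle markers, 6 of 10 fell, with a median log2 fold change of -1.43 and Tnnt3 at 0 in a library, and their sum was 1454 to 1592 in vehicle and 1297 to 1456 in NTG, most of it Pvalb, which neurons also express. The rest changed in 1 or 2 markers each: 1 of 6 for pericytes (higher), 1 higher and 1 lower of 7 for endothelium, and 1 lower of 5 for smooth muscle, of 7 for macrophages and of 5 for fibroblasts. Macrophage markers summed to 2057 to 2288 in vehicle and 1840 to 2024 in NTG, without overlap. Fibroblast markers summed to 22242 to 25479 in vehicle and 18755 to 22044 in NTG, also without overlap. The sums of the pericyte, endothelium and smooth muscle markers overlapped between groups. After GC removal 3 neuronal markers were higher and 3 lower, and 1 satellite glia marker was higher and 1 lower. Lower then were 4 skeletal muscle markers and 1 fibroblast marker, and none passed in the other lists. The log2 fold changes of Apoe, Nefh and Nefm were then -0.0031, 0.033 and -0.097 (limma adjusted p = 0.965, 0.905 and 0.0318). Sums after GC removal were not computed. In bulk tissue, fewer cells of a type and less RNA per cell cannot be told apart, and the part of these marker shifts in the results below was not tested.

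Levels between genes were compared as normalised reads per kilobase of transcript, averaged over the 6 libraries. The auxiliary subunit Kcnab2, which encodes the Kv-beta-2 protein bound to Kv1 channels, stood first at 7124 ± 595. Kcna1, the Kv1.1 subunit of axons, was next at 4431 ± 290.0, which was 26.8% of the voltage-gated total. Behind them came Kcnip3 at 1592 ± 95.1, Kcnip2 at 1442 ± 76.6, Kcnk1 at 1327 ± 54.4 and Kcna2 at 1291 ± 78.8. The library values of Kcnip3 and Kcnip2 overlapped, as did those of Kcnk1 and Kcna2, and the value of Kcnip2 rests on a transcript model of only 693 bases. At the other end, Kcnn3 reached 7.67 ± 1.71 and Kcnk6 8.27 ± 3.13. Summed over all 82 genes, the level per kilobase was 32902, 35229.9 and 35123 in vehicle replicates 1 to 3 and 31322, 33285 and 34099 in NTG, so the groups overlapped.

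**Figure D3:**
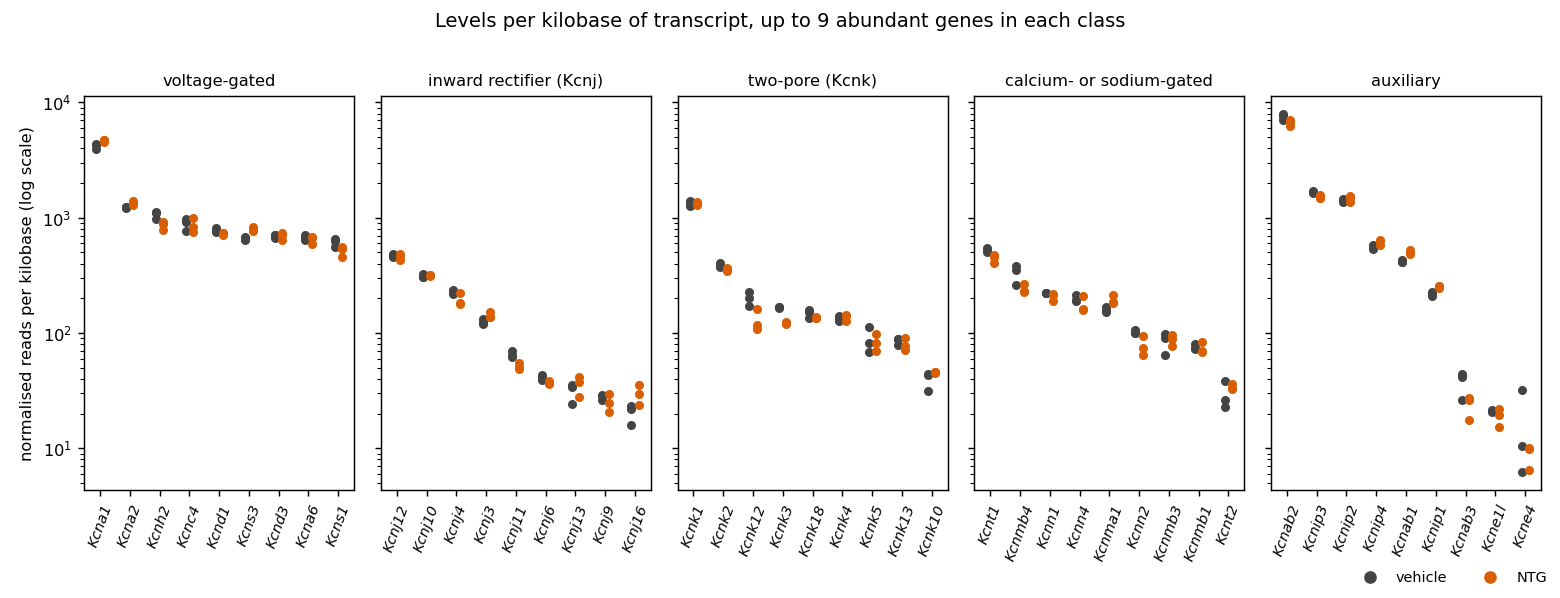
Normalised reads per kilobase of transcript (y axis, log scale) for up to 9 abundant genes in each of 5 classes (x axis), with 1 point per library, dark for vehicle and orange for NTG. Kcnab2 and Kcna1 stand above all others, and for most genes the points of the 2 groups lie within a small part of the range between genes.

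Among the voltage-gated subunits, 7 rose, 6 fell and 23 did not pass. Those that rose were Kcnh7, Kcnh5, Kcnb2, Kcna4, Kcns3, Kcna1 and Kcna2. Kcng2, Kcnh2, Kcnc1 and Kcns1 were among those that fell. Both directions occurred within the Kcnh family, where Kcnh7 and Kcnh5 rose and Kcnh2 fell, and within the Kcns family, where Kcns3 rose and Kcns1 fell. After GC removal 4 of the 7 rises and 1 of the 6 falls remained.

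Kcnh7, which lies at chr2:62693410-63184287 (minus strand) and encodes the ERG-type channel Kv11.3, had the largest rise. Its normalised reads were 1794, 1769 and 1839 in vehicle and 2759, 2650.3 and 2512 in NTG. Every NTG library was above every vehicle library by more than the spread within either group. Its log2 fold change was 0.55 ± 0.060 (limma adjusted p = 4.13e-06), and it was 0.22 after GC removal (adjusted p = 0.0087 by limma). Kcnh7 passed in all 6 fits that left out 1 library each, before and after GC removal, and it was the 1 potassium channel gene that passed when a fold of 1.2 was required. Kcnh5 at chr12:74897217-75177332 (minus strand) encodes the EAG-type channel Kv10.2. It was read at 340.0, 451 and 434 in vehicle and 600.3, 548 and 553 in NTG. Vehicle replicate 1 was the lowest, and the groups did not overlap. Kcnh5 was higher by 0.48 ± 0.11 (limma adjusted p = 0.00204), and by 0.44 after GC removal (adjusted p = 0.0077 by limma). With the GC trend removed it passed in 5 of 6 such fits, and missed with an adjusted p of 0.0513 without NTG replicate 1.

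Kcnb2 at chr1:15286925-15723751 (plus strand) encodes Kv2.2, a delayed rectifier of neuronal cell bodies. Its normalised reads were 1504, 1830.1 and 1742 in vehicle and 2361, 2129.8 and 2114 in NTG. The lowest NTG library exceeded the highest vehicle library. Its rise of 0.38 ± 0.073 (limma adjusted p = 0.000691) passed without each single library, yet it shrank to 0.037 (adjusted p = 0.769 by limma) after GC removal. Kcns3 at chr12:11090202-11151168 (minus strand) encodes Kv9.3, a silent subunit that forms channels only together with Kv2 subunits. Its values were 1909, 1978 and 1869 in vehicle and 2263, 2296 and 2422 in NTG. All NTG libraries lay above all vehicle libraries. The rise was 0.28 ± 0.060 (limma adjusted p = 0.00178) and 0.18 (adjusted p = 0.0441) after GC removal. Kcns3 passed without each library in turn, but with the GC trend removed only 1 of the 6 such fits passed, with an adjusted p of 0.223 in limma without NTG replicate 3.

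Kcna1 and Kcna2 had the highest levels per kilobase of the Kv1 genes, and both rose by little. Kcna1 at chr6:126636463-126645801 (minus strand) was at 16051, 17551 and 17203 in vehicle and 18249, 19185 and 18922 in NTG. The groups did not overlap, and NTG replicate 1 came closest to the vehicle libraries. Kcna1 rose by 0.15 ± 0.046 (limma adjusted p = 0.0207), and by 0.12 (adjusted p = 0.0366) after GC removal. Kcna2 at chr3:107090883-107115005 (plus strand) encodes Kv1.2, which assembles with Kv1.1 beside the nodes of Ranvier. It was at 14079, 14229 and 14334 in vehicle and 16308, 15763 and 15029 in NTG, again without overlap. Its rise of 0.14 ± 0.046 (limma adjusted p = 0.0253) became -0.035 (adjusted p = 0.607) after GC removal, a change of sign. Kcna4, the fast-inactivating Kv1.4 of small sensory neurons, was at 446, 402 and 451 in vehicle and 571, 536 and 473 in NTG, without overlap, and rose by 0.28 ± 0.098 (limma adjusted p = 0.0387). With the GC trend removed it was 0.11 (adjusted p = 0.541). Kcna1 did not pass without vehicle replicate 1 or NTG replicate 2, each left out alone, with a highest limma adjusted p of 0.109 without NTG replicate 2. Kcna2 did not pass without vehicle replicates 1, 2 and 3 or NTG replicates 1 and 2, each left out alone, with a highest limma adjusted p of 0.0981 without NTG replicate 1. Kcna4 did not pass without vehicle replicate 2 or NTG replicates 1 and 2, each left out alone, with a highest limma adjusted p of 0.199 without NTG replicate 1.

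Kcna6, the next most abundant Kv1 gene per kilobase, had a log2 fold change of -0.061 ± 0.063 (limma adjusted p = 0.513). The Kv1 genes sit in clusters. On chromosome 6, Kcna1 lies 101 kb from Kcna5 and 62.5 kb from Kcna6, and of the 3 only Kcna1 passed. On chromosome 3, Kcna2 lies 52.8 kb from Kcna3 and 323 kb from Kcnc4, and of those only Kcna2 passed. Differences between these neighbours were not tested.

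Kcnc1 at chr7:46396219-46438706 (plus strand) encodes Kv3.1, a fast delayed rectifier that supports high firing rates. It was at 1686, 1911 and 1912 in vehicle and 1363, 1504 and 1531 in NTG. Its groups did not overlap, and it fell by 0.32 ± 0.070 (limma adjusted p = 0.00181). After GC removal its log2 fold change was -0.20 (adjusted p = 0.0395), but only 1 of the 6 such fits without a library passed, with an adjusted p of 0.178 without NTG replicate 1. Kcnc4, another gene of the Kv3 family, was at 2817, 3384 and 3590.2 in vehicle and 2754, 3034 and 3625 in NTG, with overlap, and its log2 fold change was -0.059 ± 0.12 (limma adjusted p = 0.768) before and 0.23 (adjusted p = 0.0681) after GC removal.

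Kcnh2 at chr5:24319589-24351684 (minus strand) encodes Kv11.1, the ERG channel best known from the heart. It was at 4152, 4669.9 and 4777 in vehicle and 3299, 3713 and 3839.9 in NTG, and every NTG library was below every vehicle library. The estimated log2 fold change was -0.33 ± 0.066 (limma adjusted p = 0.00109), and 0.020 (adjusted p = 0.85) after GC removal. Kcnh2 and Kcnc1 both passed without each library in turn before GC removal.

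Kcnq3 and Kcnq5, subunits of the slow M-type current, did not pass. Kcnq3 was at 1237, 1338 and 1673 in vehicle and 1505, 1438 and 1419 in NTG, and vehicle and NTG libraries overlapped. Its log2 fold change was 0.050 ± 0.088 (95% interval -0.14 to 0.24, limma adjusted p = 0.73). Kcnq5 had 0.16 ± 0.16 (limma adjusted p = 0.49).

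The silent subunits Kcng2 and Kcns1 fell. Kcng2, which encodes Kv6.2, was low in all libraries at 283, 277 and 229 in vehicle and 153, 144 and 188 in NTG, and the groups did not overlap. Its fall of -0.70 ± 0.14 (limma adjusted p = 0.00113) was the largest of any member that passed, and it passed without each library, but it was -0.35 (adjusted p = 0.127) after GC removal. Kcns1, which encodes Kv9.1 and is known from large sensory neurons, was at 1512, 1765 and 1688 in vehicle and 1236, 1450.5 and 1517 in NTG. NTG replicate 3 lay just above vehicle replicate 1, so the groups overlapped by that pair. Kcns1 had a log2 fold change of -0.24 ± 0.079 (limma adjusted p = 0.0289), which turned to 0.092 (adjusted p = 0.402) after GC removal. Kcns1 did not pass without vehicle replicates 2 and 3 or NTG replicate 1, each left out alone, with a highest limma adjusted p of 0.191 without NTG replicate 1.

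Kv4 genes carry the A-type current that delays a spike, and none of the 3 passed. Kcnd1 was at 4046, 4009 and 4294 in vehicle and 3724, 3909 and 3912 in NTG, with all NTG libraries below all vehicle libraries by a small margin. With a log2 fold change of -0.097 ± 0.055 it did not pass (limma adjusted p = 0.208). Kcnd3 was at 1775, 1877 and 1894 in vehicle and 1701, 1966 and 1890.1 in NTG, with groups that overlapped, and at 0.00074 ± 0.066 (95% interval -0.14 to 0.14). Kcnd2 was low, at 46.9, 41.2 and 78.2 in vehicle and 32.5, 57.6 and 46.8 in NTG, and its interval of -0.87 to 0.35 is wide. Other voltage-gated genes that did not pass (Kcna3, Kcna5, Kcnc2, Kcnf1, Kcng1, Kcng3, Kcng4, Kcnh1, Kcnh3, Kcnh6, Kcnh8, Kcnq1, Kcns2 and Kcnv1) ran from -0.54 (Kcng1) to 0.45 (Kcna3), both of them under 5 CPM. Kcnh3 and Kcnq1 lie opposite genes read at 10.6 and 7.28 times their level (Mcrs1 and Kcnq1ot1), and without a known strand setting their reads cannot be told apart from those of these genes.

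**Figure D4:**
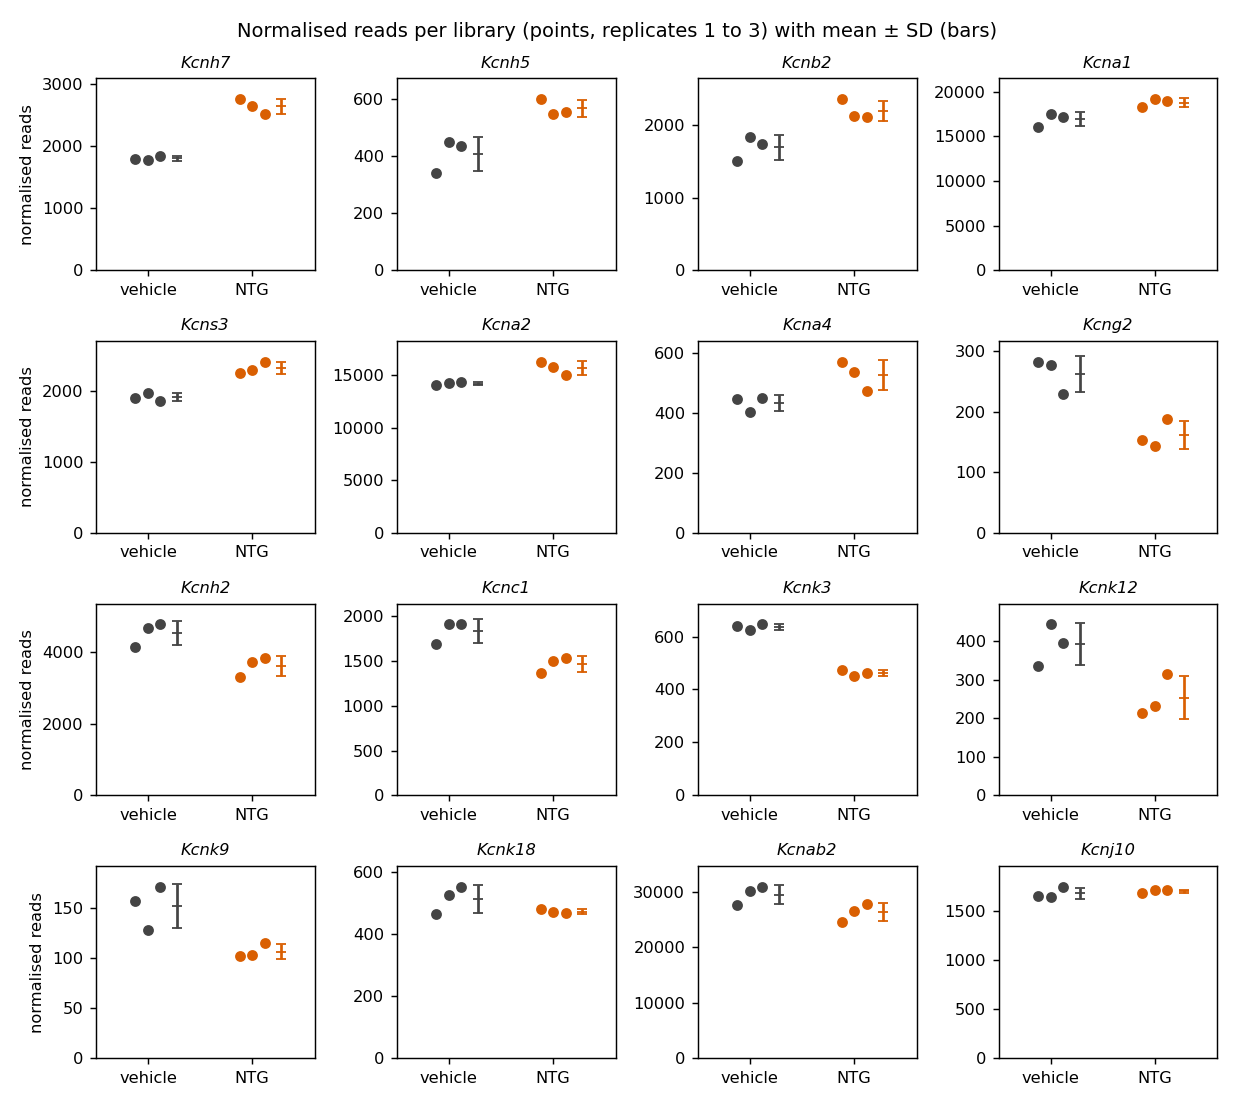
Normalised reads (y axis, starting at 0) in each of the 3 vehicle (dark) and 3 NTG (orange) libraries for 16 potassium channel genes, with 1 point per library and bars for mean ± SD. Kcnh7, Kcnk3 and Kcnk12 show groups that do not overlap, while those of Kcnk18, Kcnab2 and Kcnj10 overlap.

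Of the 12 2-pore-domain genes, none rose, 3 fell (Kcnk12, Kcnk3 and Kcnk9) and 9 did not pass. After GC removal only Kcnk9 remained lower. Kcnk3 at chr5:30588170-30625270 (plus strand) encodes TASK-1, an acid-sensitive leak channel. It was at 641, 624 and 647 in vehicle and 472, 452 and 462 in NTG. Each group spanned a narrow range and the ranges were far apart. The fall was -0.46 ± 0.085 (limma adjusted p = 0.000459), which held without each library, and -0.19 (adjusted p = 0.187) after GC removal. Kcnk12 at chr17:87745821-87797994 (minus strand) encodes THIK-2 and has the highest transcript GC of all members, 69.4%. It was at 337, 445 and 397 in vehicle and 214, 231 and 316 in NTG, with NTG replicate 3 highest of its group and just below vehicle replicate 1. The fall of -0.64 ± 0.14 (limma adjusted p = 0.00252) held without each library, but it was -0.018 (adjusted p = 0.952) after GC removal.

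Kcnk9 at chr15:72501873-72548614 (minus strand) encodes TASK-3, which pairs with TASK-1. Its reads were low, at 157, 128 and 171 in vehicle and 102, 102 and 114 in NTG, and the groups did not overlap. The fall was -0.50 ± 0.17 (limma adjusted p = 0.0323), and at a transcript GC of 47.9% it was larger after GC removal, -0.63 (adjusted p = 0.0207). Kcnk9 did not pass without vehicle replicates 1 and 3 or NTG replicates 1 and 2, each left out alone, with a highest limma adjusted p of 0.111 without NTG replicate 2. With the GC trend removed it passed in 2 of the 6 such fits, with an adjusted p of 0.103 without NTG replicate 2. Per kilobase Kcnk9 had 10.5 ± 2.35 and Kcnk3 144 ± 25.3, so TASK-3 was the scarcer of the pair.

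Kcnk18 encodes TRESK, a channel of trigeminal neurons that has been linked to migraine with aura. It was at 464, 525 and 553 in vehicle and 481, 470.3 and 467 in NTG, and vehicle replicate 1 lay below all NTG libraries. Its log2 fold change was -0.12 ± 0.093 (95% interval -0.31 to 0.078, limma adjusted p = 0.392), and -0.061 (adjusted p = 0.751) after GC removal. Kcnk1, the most abundant of the class with 52.2% of its level per kilobase, was at 2797, 3111 and 3022 in vehicle and 2859.9, 2944 and 3065 in NTG, with -0.0090 ± 0.059 (95% interval -0.13 to 0.11). The mechanically and lipid-gated Kcnk2 (TREK-1) was at 583, 633 and 593 in vehicle and 533, 550.3 and 571 in NTG, with NTG wholly below vehicle, but its log2 fold change of -0.13 ± 0.085 did not pass (limma adjusted p = 0.292). Its relatives Kcnk4 (TRAAK) and Kcnk10 (TREK-2) had 0.032 ± 0.12 and 0.21 ± 0.13 (limma adjusted p = 0.88 and 0.232). Kcnk5, Kcnk6, Kcnk7 and Kcnk13 ran from -0.13 (Kcnk7) to 0.36 (Kcnk6), and Kcnk7 lies opposite Ehbp1l1, read at 26.6 times its level.

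None of the 12 inward rectifiers passed in either direction. In limma 0 of them had an adjusted p under 0.05, and edgeR also called 0. An unadjusted p under 0.05 was reached by 4 of them, and by at least the 25.8 percent of all genes that passed after adjustment. Of the 12, 6 had a mean under 5 CPM, a level at which no member of any class passed. Kcnj10 encodes Kir4.1, the channel by which satellite glia take up potassium, and is an abundant member of the class. It was at 1655, 1645 and 1746 in vehicle and 1683, 1711 and 1711 in NTG, and the groups overlapped. Its log2 fold change was 0.017 ± 0.061, with a 95% interval of -0.11 to 0.15. Kcnj16, which pairs with Kir4.1, was low at 81.7, 86.5 and 59.5 in vehicle and 88, 131 and 110.1 in NTG, and all NTG libraries were above vehicle. It missed the threshold at 0.53 ± 0.21 (limma adjusted p = 0.0732). Kcnj12 (Kir2.2) had the highest level of the class per kilobase, 464 ± 20.6, and a log2 fold change of -0.049 ± 0.070.

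The ATP-sensitive channel is built on Kir6.2 or Kir6.1. Kcnj11, which encodes Kir6.2, was at 203, 221 and 195 in vehicle and 154, 160.0 and 172 in NTG, with NTG wholly below vehicle, and its log2 fold change was -0.35 ± 0.14 (limma adjusted p = 0.0683). Kcnj8, which encodes the vascular Kir6.1, was at 38.1, 45.3 and 37.5 in vehicle and 40.9, 60.8 and 55.5 in NTG, and its log2 fold change was 0.36 ± 0.27 (limma adjusted p = 0.354). The 95% interval of Kcnj8 spans -0.20 to 0.91. The G-protein-gated subunits Kcnj3, Kcnj6 and Kcnj9 had 0.18 ± 0.082, -0.14 ± 0.16 and -0.17 ± 0.19 (limma adjusted p = 0.119, 0.564 and 0.563). Kcnj2, Kcnj4, Kcnj13 and Kcnj14 ran from -0.23 (Kcnj4) to 0.39 (Kcnj14), and Kcnj13 lies opposite Gigyf2, read at 29 times its level.

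Of the 11 calcium- or sodium-gated genes, Kcnma1 rose, Kcnmb4, Kcnn2 and Kcnt1 fell, and 7 did not pass. None of the 4 passed after GC removal. Kcnma1 at chr14:23292288-24005110 (minus strand) encodes the pore of the large-conductance BK channel, which opens with calcium and depolarisation. It was at 679, 749 and 707 in vehicle and 945, 817 and 809 in NTG. NTG replicate 1 was the highest, and the groups did not overlap. The rise was 0.26 ± 0.083 (limma adjusted p = 0.0218), and 0.17 (adjusted p = 0.175) after GC removal. Kcnmb4 at chr10:116417861-116473859 (minus strand) encodes the neuronal beta-4 subunit of the same channel. It was at 519.8, 479 and 355 in vehicle and 316, 307 and 362 in NTG, and NTG replicate 3 lay above vehicle replicate 3, so the groups overlapped. Its log2 fold change was -0.44 ± 0.13 (limma adjusted p = 0.0146) and -0.036 (adjusted p = 0.912) after GC removal. Kcnma1 did not pass without vehicle replicate 1 or NTG replicate 1, each left out alone, with a highest limma adjusted p of 0.157 without NTG replicate 1. Kcnmb4 did not pass without vehicle replicates 1 and 2 or NTG replicates 1 and 2, each left out alone, with a highest limma adjusted p of 0.0717 without vehicle replicate 2.

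Opposite Kcnmb4 lie 2 long non-coding genes, chosen here after their values were seen, which also fell. Kcnmb4os2 at chr10:116473163-116474987 was at 218, 276 and 197 in vehicle and 95.3, 76.8 and 123 in NTG, without overlap, and its log2 fold change was -1.23 ± 0.18 (limma adjusted p = 6.93e-05). Kcnmb4os1 at chr10:116418121-116421235 was at 77.4, 37.1 and 82.6 in vehicle and 19.9, 12.8 and 24.3 in NTG, with all NTG libraries below vehicle. For this gene the log2 fold change was -1.70 ± 0.35 (limma adjusted p = 0.00121). After GC removal these were -0.76 and -1.56 (adjusted p = 0.00508 and 0.00485), so both still passed while Kcnmb4 did not, a difference that was not tested. Both overlap Kcnmb4 on the other strand. The libraries are strand-specific by the labels, but the strand setting of the counting is not given in the sources used here, so reads of Kcnmb4 and of this pair may be mixed.

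Kcnt1 at chr2:25863791-25918273 (plus strand) encodes Slack, the sodium-activated channel of sensory neurons, and led the class per kilobase at 488 ± 52.5. It was at 2966, 3133 and 3235 in vehicle and 2387, 2706 and 2802 in NTG, without overlap. Its fall was -0.24 ± 0.065 (limma adjusted p = 0.00809), against -0.079 (adjusted p = 0.383) after GC removal. Kcnn2, which encodes the small-conductance channel SK2 of the afterhyperpolarisation, was at 378, 354 and 358 in vehicle and 229, 333 and 265 in NTG. NTG replicate 2 came closest to vehicle, and the groups did not overlap. Its fall was -0.41 ± 0.13 (limma adjusted p = 0.0194) and -0.27 (adjusted p = 0.179) after GC removal. Kcnt1 did not pass without NTG replicate 1 (0.0644 as limma adjusted p). Kcnn2 did not pass without NTG replicates 1 and 3, each left out alone, with a highest limma adjusted p of 0.143 without NTG replicate 1. The other small- and intermediate-conductance genes Kcnn1, Kcnn3 and Kcnn4 had -0.12 ± 0.077, -0.14 ± 0.38 and -0.18 ± 0.12 (limma adjusted p = 0.298, 0.824 and 0.269). Kcnt2, Kcnmb1, Kcnmb2 and Kcnmb3 ran from -0.036 (Kcnmb1) to 0.31 (Kcnmb2). Kcnmb1 overlaps Kcnip1, on the opposite strand and read at 1.31 times its level, and Kcnmb3 lies opposite Pik3ca, read at 11.9 times its level.

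Among the 9 auxiliary genes, Kcnab1 rose, Kcnab2 fell and 7 did not pass, and none passed after GC removal. Both encode cytoplasmic beta subunits of Kv1 channels. Kcnab1 at chr3:64949212-65378225 (plus strand) was at 1351, 1401 and 1341 in vehicle and 1583, 1706 and 1683 in NTG, without overlap. Its rise was 0.28 ± 0.064 (limma adjusted p = 0.00278), held without each library, and was 0.099 (adjusted p = 0.366) after GC removal. Kcnab2 at chr4:152390744-152477549 (minus strand) was at 27582, 30127 and 30966 in vehicle and 24577, 26600.1 and 27784 in NTG. NTG replicate 3 lay above vehicle replicate 1, so the groups overlapped. The fall of -0.17 ± 0.051 passed (limma adjusted p = 0.0204), and it turned to 0.073 (adjusted p = 0.174) after GC removal. Kcnab2 did not pass without vehicle replicates 2 and 3 or NTG replicates 1 and 2, each left out alone, with a highest limma adjusted p of 0.115 without vehicle replicate 3. The third beta gene, Kcnab3, was low at 112, 66.9 and 106 in vehicle and 45, 69.3 and 66.8 in NTG, overlapped between groups, and had -0.63 ± 0.24 (limma adjusted p = 0.0591).

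The KChIP proteins bind Kv4 channels and bring them to the surface. Kcnip3, which also encodes the DREAM repressor, was at 4627, 4584 and 4478 in vehicle and 4075, 4319 and 4014 in NTG, with NTG wholly below vehicle, and its log2 fold change was -0.14 ± 0.053 (limma adjusted p = 0.0547). Kcnip1 had 0.21 ± 0.095, Kcnip2 0.060 ± 0.074 and Kcnip4 0.15 ± 0.069 (limma adjusted p = 0.11, 0.597 and 0.129). Kcnip4 has the lowest transcript GC of all members, 39.2%, and after GC removal its estimate was -0.17. Kcne4 and Kcne1l were scarce, and Kcne1l had -0.18 ± 0.31 (limma adjusted p = 0.724). Kcne4 was at 85, 27.8 and 16.5 in vehicle and 26.2, 17.1 and 26.9 in NTG, where vehicle replicate 1 alone stood above the other 5 libraries, and its interval was -1.55 to 0.44. The 2 remaining genes were Kcnrg, which encodes a protein with a channel-like tetramerisation domain but no pore, at 0.68 ± 0.44, and Kcnu1, the sperm channel Slo3, at 0.025 ± 0.20. Kcnrg is under 1 CPM and shares its strand with Trim13, read at 15.9 times its level.

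Genes that anchor, modulate or assemble with potassium channels under other symbols moved in both directions. Of 38 listed, 37 were in the table. Of those, 9 rose and 7 fell, with a median log2 fold change of 0.037, beside the background of 12.3 and 13.5 percent. Over all genes of at least 5 CPM, a level that nearly all of the list reached, percent called was 34.2. Adam22, a partner of Kv1 channels at the axon, went from 5293 ± 215 to 6481 ± 206 normalised reads (mean ± SD, n = 3 libraries per group) and rose by 0.29 ± 0.052 (limma adjusted p = 0.000375). Cntnap2, which clusters Kv1 channels beside the node, rose by 0.20 ± 0.060, and the scaffold genes Dlg2 and Epb41l3 by 0.29 ± 0.063 and 0.15 ± 0.042. Dpp10, a Kv4 subunit, rose by 0.37 ± 0.071. Of these only Adam22 passed after GC removal, at 0.24 (adjusted p = 0.000812 by limma). The values of Cntnap2, Dlg2, Epb41l3 and Dpp10 were then 0.0014, 0.10, 0.081 and 0.038.

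The G-protein subunits that open Kcnj3-type channels split. Gng2 rose by 0.35 ± 0.060, whereas the log2 fold changes of Gnb2, Gng3 and Gnb1 were -0.31 ± 0.062, -0.24 ± 0.051 and -0.13 ± 0.043 (limma adjusted p = 0.00025, 0.000858, 0.00181 and 0.0274). After GC removal Gnb2 no longer passed, at -0.017 (adjusted p = 0.875 by limma), while Gng2, Gng3 and Gnb1 still did, at 0.15, -0.14 and -0.22. Gng2 and Gng3 were then near the threshold (adjusted p = 0.0483 and 0.0455 by limma). With the GC trend removed, they passed in 0 of the 6 fits that left out 1 library each, and Gnb1 in all 6. Before GC removal Gnb1 passed in only 2 of the 6 such fits. Vapa, which tethers Kv2 channels to the endoplasmic reticulum, went from 2508 ± 61.1 to 2082 ± 95.9 and had -0.27 ± 0.060 (limma adjusted p = 0.00224), and -0.49 after GC removal. Pip5k1c, which makes the lipid that many potassium channels need to open, had -0.24 ± 0.061 before and 0.11 after GC removal. Calm3, 1 of 3 calmodulin genes, had -0.15 ± 0.042 and turned to 0.10 (adjusted p = 0.0244 by limma) after GC removal, where it passed in the other direction. Calm3 passed in 2 of the 6 fits without a library before GC removal, and in 2 of the 6 after it. After GC removal the list held 5 genes that rose and 3 that fell, with a median of 0.019, against 4.15 and 5.07 percent of all genes. The share over genes of at least 5 CPM alone was not computed after GC removal.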

How the data were processed

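RNA of the trigeminal ganglion of wild-type mice was sequenced in 3 vehicle and 3 NTG libraries, grouped by the sample labels. TRIzol RNA was enriched for polyadenylated transcripts, and strand-specific NEBNext Ultra libraries were read in pairs on an Illumina NovaSeq, per the labels' protocols. The tools FastQC and HISAT2 and the build GRCm38 come from the submitters' processing notes. How reads were counted (tool, strand, annotation) and scaled is not given in the sources used here. The authors deposited a signal per gene and library, gene counts divided by a size factor. Of these values, 100% were whole reads within a tolerance of 0.01 after division by the worth of 1 read (0.867 to 1.10).

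The members and gene lists were chosen with earlier results of these data known. The test was limma-trend with robust empirical Bayes, two-sided, on log2(value + 1) for 17475 genes at 1 or more in at least 3 libraries. Its p-values were adjusted over all of these genes by Benjamini-Hochberg and called at 0.05. The log2(value + 1) scale of the fold changes understates those of low genes. The GC and length adjustment subtracted from each library an mgcv smooth over transcript GC and log2 length, for 16278 genes with a GENCODE release M21 transcript, taking the principal isoform where one was marked. All 82 members matched a transcript and had the RefSeq GRCm38.p6 coordinates. That RefSeq table lists 94 protein-coding Kcn symbols, and the others were not analysed here.

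Named genes were every member past the threshold, the 6 of smallest p and the 2 of highest level per kilobase in each class, a list of channels of sensory neurons, glia and vessels, partner genes past the threshold (up to 6 in each direction) and up to 3 markers per cell type. Other members were named to account for most, and 4 of the 82, although counted, are not reported here by name. Alternatives were other pseudocounts, filters and scalings, the tests of edgeR, DESeq2 and limma-voom on recovered reads, a minimum fold of 1.2, the GC adjustment, a replicate block and the omission of single libraries. On simulated data for this comparison with 17524 genes, limma recovered 67% of 1.5-fold and 68% of 2-fold changes, and 6.90% of calls were unchanged genes. Those data held few changed genes and no GC trend, and most changes called among the members were under 1.5-fold. The rates therefore do not carry over to the calls reported here. The analysis used Python 3.11.15 with matplotlib 3.10.9, numpy 2.4.6 and pandas 2.3.3, and R 4.3.3 with DESeq2 1.42.0, limma 3.58.1, mgcv 1.9.3 and edgeR 4.0.16.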

Additional observations from a re-analysis of the deposited data

How the results depend on the processing

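In 25 alternatives, the counts of 9 potassium channel genes higher, 13 lower and 4512 of all genes past the threshold stayed within 1.5 times of these values in limma with other pseudocounts, filters or scalings, in edgeR, in DESeq2 and in limma-voom. A minimum fold of 1.2 left 1 higher, 0 lower and 313 of all genes, and GC and length removal left 4, 2 and 1500. Leaving out 1 library gave 6 to 9 higher, 7 to 13 lower and 2946 to 4678 of all genes, with the lowest values, 7 without NTG replicate 1 and 2946 without NTG replicate 2, beyond 1.5 times. With GC removal as well, these were 2 to 4, 0 to 2 and 712 to 1581. Of the 22 members past the threshold, 12 also passed without each library in turn. Deviations from the group means correlated at 0.0041, -0.033 and -0.025 between same-numbered libraries. With 3 libraries per group, these values cannot decide whether the replicate numbers pair the libraries. The replicate block gave 9 higher, 15 lower and 5254 of all genes, and the replicate block with GC removal 6, 2 and 2066.

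Among the 22 members past the threshold, signs turned after GC removal, with or without the replicate block, for Kcnab2 (0.073), Kcnh2 (0.020), Kcna2 (-0.035) and Kcns1 (0.092). Signs also turned for members that had not passed, such as Kcnip4 and Kcnc4. Without 1 library, before and after GC removal, log2 fold changes ran from -0.22 to 0.099 for Kcnab2, -0.39 to 0.040 for Kcnh2, -0.051 to 0.17 for Kcna2, -0.31 to 0.14 for Kcns1, -0.60 to 0.11 for Kcnmb4, -0.81 to 0.058 for Kcnk12 and -0.015 to 0.44 for Kcnb2. Every value on the turned side of 0 came with GC removal. Kcnc4, which had not passed, was higher by 0.23 and passed with the replicate block and GC removal, and without 1 library it ran from -0.17 to 0.29. The cause was not tested. Depth limits the 22 members under 5 CPM, none of which passed and whose intervals are wide.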
